A study of Mus musculus with 6 samples.

Results

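The genes described here are 34 genes of ribosome biogenesis and the nucleolus, listed by name. A gene was measured by every probe whose platform symbol, brought up to date, was its name. Of the 34, 33 had at least 1 such probe, 63 probes in all, and 27 had a probe that was detected, among 8909 genes tested on the arrays. Each of these 27 was detected on all 6 arrays, so none entered through 1 group alone. The remaining genes gave no level: both probes of Dkc1 and the single probes of Utp20, Bysl, Wdr12 and Nop16 were detected on 0 arrays, the Nolc1 probe on 1 array, and Fbl had no named probe. The samples were cultures of MC38, a colon carcinoma line from C57Bl/6 mice, measured as total RNA on single-colour Illumina bead arrays. Stimulated cells spent 16 h without serum and then received 10 µg/mL of S100A8/A9, added for 6 h. S100A8/A9 is a calcium-binding protein pair released by neutrophils and monocytes. Unstimulated cells spent the same 16 h without serum and received no S100A8/A9, and control cells were kept in normal growth medium without starvation. Whether unstimulated cells stayed in culture for those 6 h is not given. Each group had 2 arrays, and whether these are independent cultures is not stated in the labels, so the p-values cover array-to-array spread that may be technical only.

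Ribosomes are built in the nucleolus, where RNA polymerase I transcribes the long precursor of the ribosomal RNAs. Small nucleolar ribonucleoproteins (snoRNPs) guide its modification and cleavage, and assembly factors fold it with ribosomal proteins into precursors of the small and the large subunit. Building ribosomes is one of the costliest tasks of a growing cell, it responds to growth factors and nutrients, and the transcription factor MYC is a known activator of many of these genes.

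The median deposited signal was 90.2 to 97.4 per array, and 14877 to 16176 of 45281 probes were detected, that is had a detection p-value below 0.01. The number of arrays limits the precision. The carcinoma label was set against epithelial markers: 9 of 11 were detected on 0 arrays, among them Epcam, Krt8, Krt18 and Cdx2, and Cdh1 and Cldn7 on 1 array each. Of 10 fibroblast or mesenchymal markers, 5 were detected on all arrays (Col3a1, Dcn, Pdgfra, Pdgfrb and Vim) and Lum, Thy1 and Fap on 0. Of the 6 leukocyte markers with a probe, 5 were detected on 0 arrays, and all 4 endothelial markers were detected on 0. The summed normalized intensity of the 7 mesenchymal markers tested was 28830 and 24938 in stimulated, 23530 and 29780 in unstimulated, and 13153 and 19111 in control cells. The sum was thus higher in both starved groups, but it weighs Vim most (mean log2 intensity 14.08 in unstimulated and 13.65 in control cells). In each starved group relative to control cells 6 of the 7 had estimates above 0 and 1 below. In unstimulated cells the lower 1 was Col1a2 (5.55 against 6.50 in control cells), detected on 1 unstimulated array. The part of these markers in the results was not tested.

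Serum starvation was accompanied by lower levels of most of these genes. Of the 27 tested, 19 fell in unstimulated relative to control cells and 0 rose, where a gene was called at a Benjamini-Hochberg adjusted p below 0.05 over all 8909 genes (limma). The 19 include Tsr1, whose 2 probes disagreed, and without it 18 of 26 fell. Over all genes tested 30.8% were called, 13.7% lower and 17.1% higher. By the brightest probe, Tsr1 included, the estimate was below 0 for all 27, against 50.1% of all genes. Both unstimulated arrays lay below both control arrays for all 27, against 33.8% of all genes. The genes were listed with earlier results of these data known, so these shares are a description only. The median log2 fold change was -0.79 for these genes and -0.00 for all genes. Lower by more than 1.5-fold were 18 of the 27, against 910 of all 8909 genes. Lower by more than 2-fold were 6, where 1.95% of all genes were called lower by 2-fold or more. Both counts include Tsr1 by its brightest probe. Without any 1 of the 4 arrays compared, 15 to 19 members were called, while the count over all genes fell to between 1366 and 1736 (2746 with all arrays). Values are relative to the other probes of an array, and in such bulk samples fewer cells carrying an RNA and less RNA per cell cannot be told apart.

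**Figure D1:**
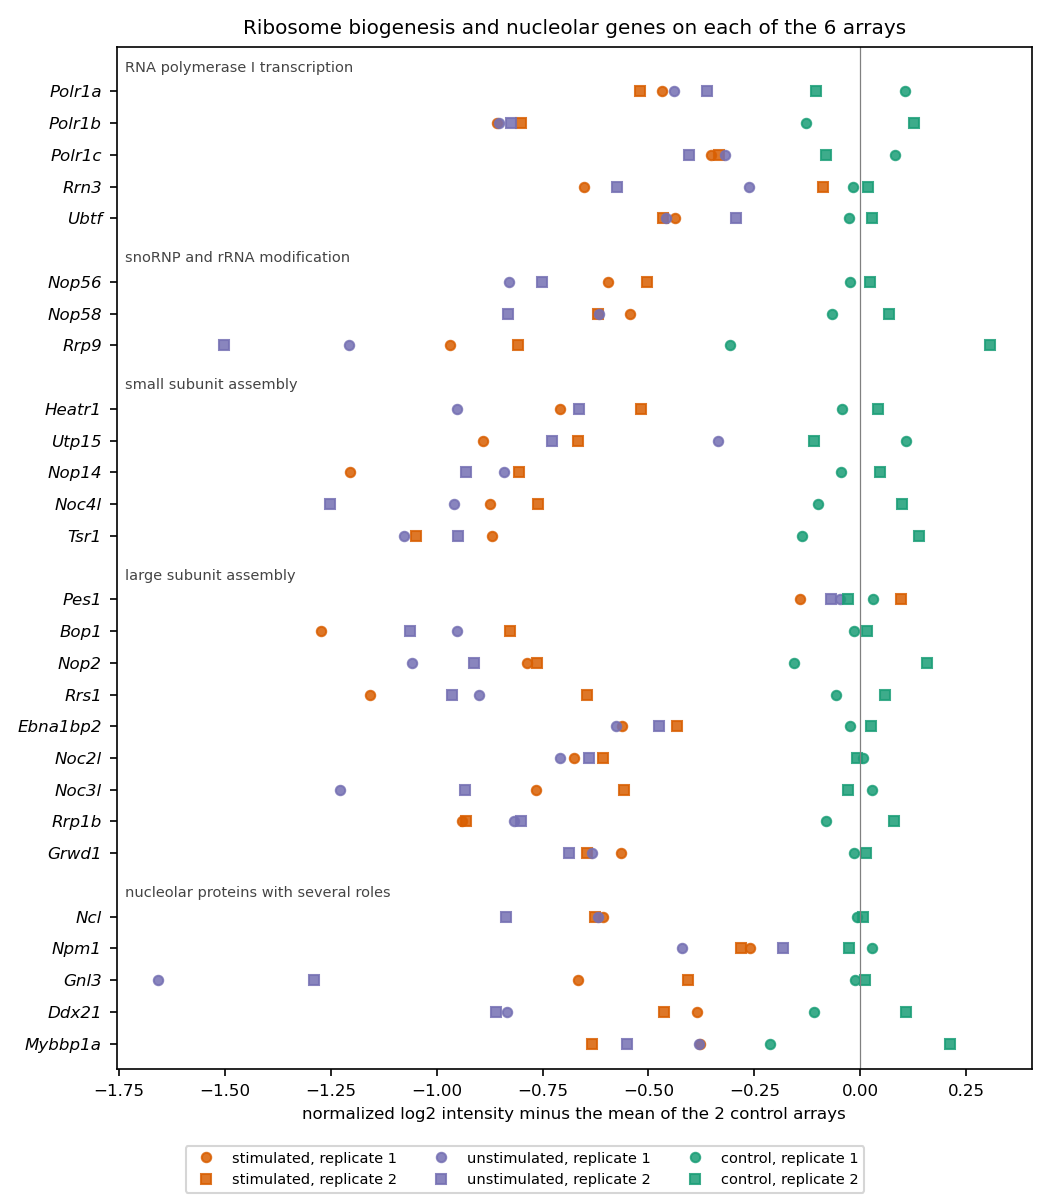
Normalized log2 intensity of the 27 genes detected, on each of the 6 arrays, as the difference from the mean of the 2 control arrays (horizontal axis, log2), with circles for replicate 1 and squares for replicate 2. Both unstimulated arrays lie to the left of both control arrays for all 27 genes, and both stimulated arrays for 26, Pes1 being the exception. The 2 leftmost points of all are unstimulated arrays, 1 of Gnl3 and 1 of Rrp9.

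Among the 5 genes of RNA polymerase I transcription, 1 was called lower with starvation, where 13.7% of all genes were. Polr1b, which encodes the second largest subunit of the polymerase, had normalized log2 intensities of 9.70 and 9.75 in stimulated, 9.70 and 9.73 in unstimulated and 10.43 and 10.68 in control cells. Its 4 starved arrays lay within 0.06 of each other and clearly below the controls, and it fell 1.79-fold in unstimulated relative to control cells (log2 fold change -0.84 ± 0.15 SE, adjusted p = 0.00404). Polr1a, which encodes the largest subunit, was at 11.25 and 11.19 in stimulated, 11.28 and 11.35 in unstimulated and 11.82 and 11.61 in control cells. The starved arrays again lay below both controls, but by less, and the difference between unstimulated and control cells did not pass (-0.40 ± 0.15 SE, adjusted p = 0.0677). Rrn3, an initiation factor that couples the polymerase to growth signals, was at 9.41 and 9.97 in stimulated, 9.80 and 9.48 in unstimulated and 10.04 and 10.08 in control cells. Its stimulated replicates lay 0.56 apart, the widest gap between stimulated replicates among the 27 genes, and its estimate did not pass (-0.42 ± 0.20 SE, adjusted p = 0.152). Ubtf, which encodes the DNA-binding factor UBF that keeps ribosomal RNA genes open, was at 10.33 and 10.30 in stimulated, 10.31 and 10.48 in unstimulated and 10.74 and 10.79 in control cells and did not pass (-0.38 ± 0.14 SE, adjusted p = 0.0756). Polr1c, which encodes a subunit shared with RNA polymerase III, was at -0.36 ± 0.14 SE, adjusted p = 0.0857. All 5 had unstimulated arrays below control arrays, and 4 of them had estimates between -0.36 and -0.42. Polr1a, Polr1c and Ubtf were also called lower without background correction, with the deposited table, with 75th percentile scaling and with a trended robust variance. The other detected Ubtf probe was at -0.70 ± 0.20 SE.

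All 3 snoRNP genes measured fell. Rrp9 encodes a protein specific to the U3 snoRNP, which is needed for the first cleavages of the precursor RNA. It had log2 intensities of 10.00 and 10.16 in stimulated, 9.76 and 9.46 in unstimulated and 10.66 and 11.27 in control cells. The control replicates differed by 0.61, the widest gap between control replicates among these genes, and the fall of 2.56-fold in unstimulated cells was larger than that gap (-1.35 ± 0.21 SE, adjusted p = 0.00234). Without control replicate 1 or 2 the log2 fold change was -1.65 or -1.05 and the call remained. Nop56 and Nop58 encode the paired core proteins of the box C/D snoRNPs, which methylate ribosomal RNA. Nop56 was at 11.73 and 11.82 in stimulated, 11.49 and 11.57 in unstimulated and 12.30 and 12.35 in control cells, with the control arrays highest and the stimulated ones between (-0.79 ± 0.14 SE, adjusted p = 0.00387 for unstimulated against control). Nop58 was at 12.85 and 12.77 in stimulated, 12.77 and 12.56 in unstimulated and 13.32 and 13.46 in control cells, with a fall of similar size (-0.72 ± 0.15 SE, adjusted p = 0.00758) that was not called without unstimulated replicate 2 (adjusted p = 0.0577).

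Small subunit assembly genes fell in 4 of 5 cases by their brightest probes. Noc4l and Nop14 encode nucleolar proteins whose yeast counterparts bind each other in the small subunit precursor. Noc4l was at 9.60 and 9.72 in stimulated, 9.52 and 9.23 in unstimulated and 10.38 and 10.58 in control cells, and fell 2.15-fold in unstimulated cells (-1.11 ± 0.16 SE, adjusted p = 0.0017). Nop14 was at 10.11 and 10.51 in stimulated, 10.48 and 10.39 in unstimulated and 11.27 and 11.36 in control cells, and fell 1.85-fold (-0.89 ± 0.17 SE, adjusted p = 0.0052). For both genes every starved array lay below every control array. Heatr1, a large scaffold protein of the early precursor, was at 12.27 and 12.47 in stimulated, 12.03 and 12.32 in unstimulated and 12.94 and 13.03 in control cells and fell as well (-0.81 ± 0.16 SE, adjusted p = 0.0063). Utp15, also part of the early complex, was at 7.31 and 7.54 in stimulated, 7.87 and 7.47 in unstimulated and 8.31 and 8.09 in control cells and narrowly missed the threshold (-0.53 ± 0.18 SE, adjusted p = 0.0518). Unstimulated replicate 1 was the highest of its starved arrays. With 1 array left out, the log2 fold change ranged from -0.73 to -0.34. Tsr1, a late maturation factor of the small subunit, has 2 detected probes that went opposite ways. Its brighter probe was at 9.07 and 8.89 in stimulated, 8.86 and 8.99 in unstimulated and 9.80 and 10.07 in control cells, lower in starved cells (-1.01 ± 0.16 SE, adjusted p = 0.00233). The other had deposited signals of 208.3 and 254.6 in stimulated, 272.1 and 260.1 in unstimulated and 173.6 and 183.9 in control cells, and its log2 fold change was 0.84 ± 0.16 SE (adjusted p = 0.00714 over all named probes). With the mean of both probes Tsr1 was at -0.09, so no direction is given for this gene.

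Large subunit assembly genes fell in 8 of 9 cases. Noc3l, a nucleolar factor that in yeast pairs with the protein of Noc2l, was at 9.26 and 9.47 in stimulated, 8.80 and 9.09 in unstimulated and 10.05 and 10.00 in control cells, and fell 2.11-fold in unstimulated cells (-1.08 ± 0.16 SE, adjusted p = 0.00185). Bop1 and Pes1 encode partners in the PeBoW complex, which matures the large subunit RNA together with the product of Wdr12. Bop1 was at 9.75 and 10.19 in stimulated, 10.07 and 9.95 in unstimulated and 11.00 and 11.03 in control cells, with every starved array below both controls (-1.01 ± 0.17 SE, adjusted p = 0.0035). Pes1 was at 10.99 and 11.23 in stimulated, 11.08 and 11.06 in unstimulated and 11.16 and 11.10 in control cells, with the stimulated replicates on either side of the controls. Its estimate was the nearest to 0 of the 27 (-0.06 ± 0.15 SE, adjusted p = 0.79, 95% confidence interval -0.39 to 0.28). Thus Bop1 was called and Pes1 was not, and the difference between these genes was not tested. Nop2, which encodes a methyltransferase of the large subunit RNA, was at 10.23 and 10.25 in stimulated, 9.96 and 10.10 in unstimulated and 10.86 and 11.17 in control cells (-0.98 ± 0.16 SE, adjusted p = 0.00258). Rrs1 was at 7.09 and 7.60 in stimulated, 7.34 and 7.28 in unstimulated and 8.19 and 8.30 in control cells (-0.93 ± 0.18 SE, adjusted p = 0.00627), and Rrp1b at 9.42 and 9.43 in stimulated, 9.54 and 9.56 in unstimulated and 10.28 and 10.44 in control cells (-0.81 ± 0.14 SE, adjusted p = 0.0037). These 3 genes fell by 1.75-fold to 1.98-fold. The falls of Noc2l (-0.67 ± 0.14 SE, adjusted p = 0.00726), of Grwd1, which encodes a WD-repeat chaperone (-0.66 ± 0.14 SE, adjusted p = 0.00796), and of Ebna1bp2 (-0.53 ± 0.14 SE, adjusted p = 0.0228) were smaller. Ebna1bp2 lost its call without any 1 of the 4 arrays compared (highest adjusted p = 0.107), and Grwd1 without unstimulated replicate 2.

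Of 5 nucleolar proteins with several roles, 3 fell. Gnl3 encodes nucleostemin, a GTPase abundant in the nucleoli of proliferating and stem cells. Its deposited signals were 187.7 and 231.3 in stimulated, 146.3 and 157.8 in unstimulated and 272.1 and 321.4 in control cells. On the normalized log2 scale it was at 7.11 and 7.37 in stimulated, 6.12 and 6.49 in unstimulated and 7.77 and 7.79 in control cells. The groups did not overlap, with stimulated cells between the other two, and the 2.78-fold fall in unstimulated relative to control cells was the largest estimate of the 27 (-1.47 ± 0.17 SE, adjusted p = 0.0006). Its signal lies near the background, and the log2 fold change was -0.96 without background correction, where Rrp9 fell most (-1.28). Rrp9 was also lowest with an offset of 50, with the deposited table, and without unstimulated replicate 1 or control replicate 1. Ddx21, an RNA helicase of ribosomal RNA transcription and processing, was at 12.10 and 12.02 in stimulated, 11.65 and 11.63 in unstimulated and 12.38 and 12.60 in control cells, in the same order of groups (-0.85 ± 0.15 SE, adjusted p = 0.00354). Ncl encodes nucleolin, a major nucleolar RNA-binding protein, and was at 10.64 and 10.62 in stimulated, 10.63 and 10.41 in unstimulated and 11.24 and 11.26 in control cells (-0.73 ± 0.15 SE, adjusted p = 0.00668). When unstimulated replicate 2 was left out its adjusted p was 0.0542. Npm1, which encodes the abundant chaperone nucleophosmin, did not pass (-0.30 ± 0.15 SE, adjusted p = 0.155). Its deposited signals were 37528 and 39725 in stimulated, 41055 and 45314 in unstimulated and 53682 and 51361 in control cells, where the highest signal of any probe on an array was 62292 to 67020. Mybbp1a, which encodes a nucleolar partner of MYB and p53, was at 12.69 and 12.43 in stimulated, 12.69 and 12.51 in unstimulated and 12.85 and 13.28 in control cells by its brightest probe and did not pass (-0.47 ± 0.18 SE, adjusted p = 0.0857). Its control replicates lay 0.42 apart, and its other 3 probes gave larger differences.

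**Figure D2:**
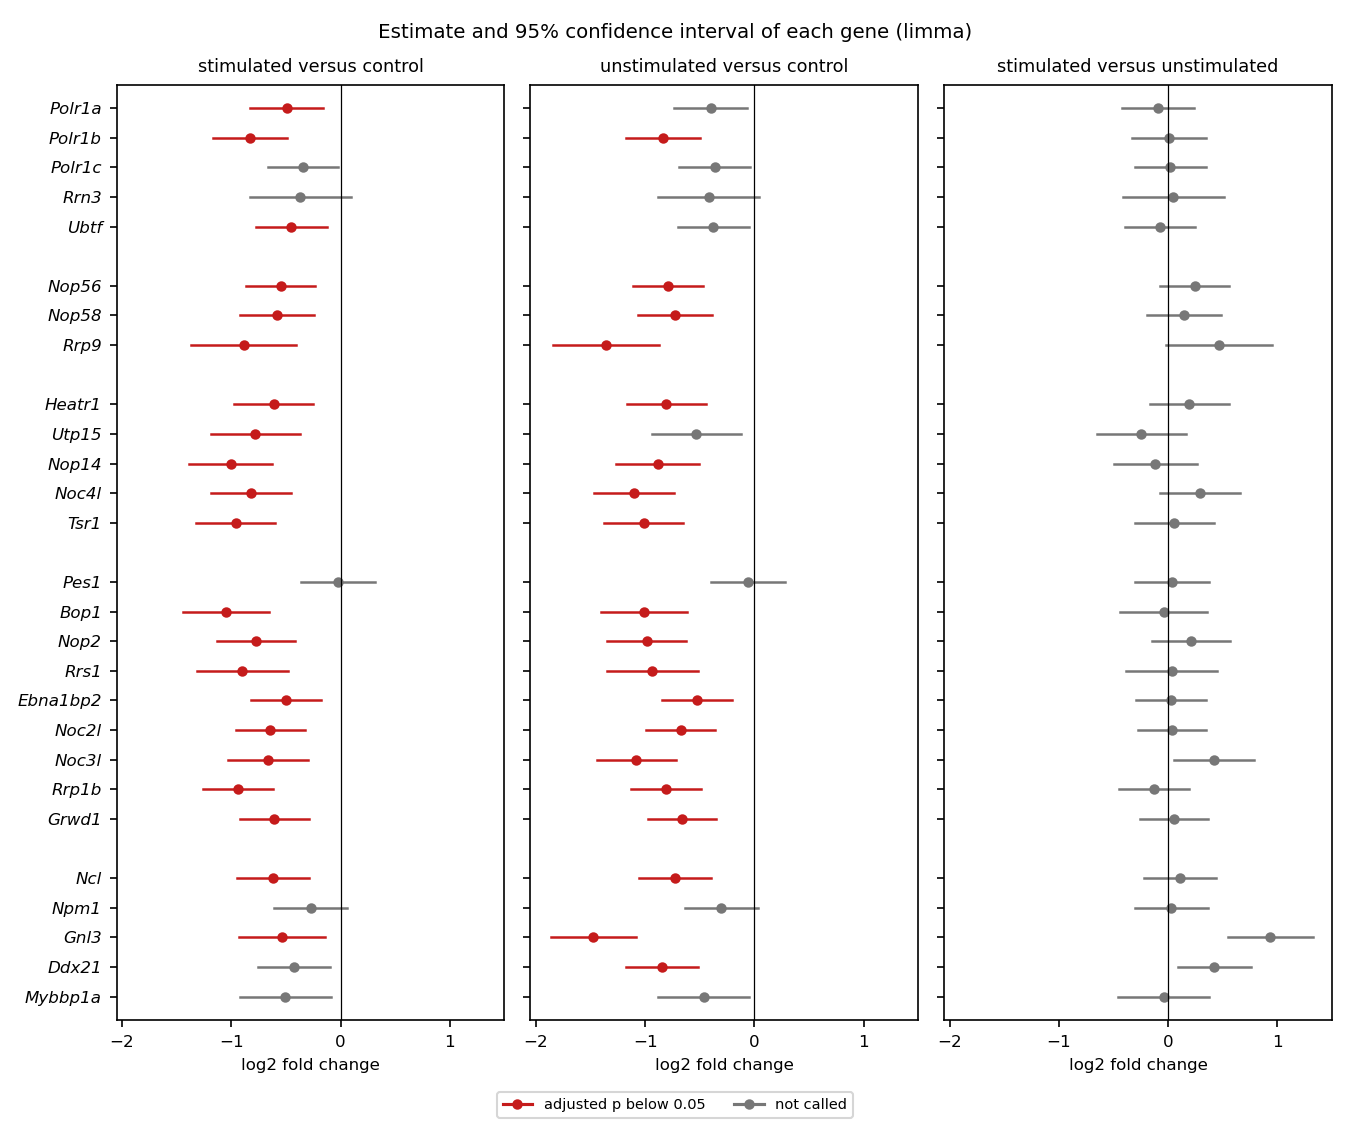
Log2 fold change (horizontal axis) of the 27 genes in the 3 comparisons, with 95% confidence intervals from limma. Red marks an adjusted p below 0.05 over all 8909 genes, which 21 genes reached in stimulated against control cells (left), 19 in unstimulated against control cells (middle) and 0 in stimulated against unstimulated cells (right).

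More than 1 probe was detected for 12 of the 27 genes, which gave 19 further probes. In unstimulated relative to control cells, 18 of the 19 had the sign of the brightest probe, Tsr1 being the exception, and 5 lay over 1.5-fold away from it. The other Mybbp1a probes were at -1.02 ± 0.16, -1.13 ± 0.16 and -1.21 ± 0.21 SE (adjusted p 0.00237 to 0.00561 over all named probes), against -0.47 for the brightest. For Polr1a the other probes gave -0.43, -0.58 and -1.22, against -0.40, and for Rrp1b -0.87, -1.21 and -1.51, against -0.81. When all detected probes of a gene were averaged, 22 genes were called, with Mybbp1a, Polr1a, Ubtf and Utp15 added and Tsr1 lost. The brightest probe thus gave the smallest change for several genes, and estimates near the threshold depend on the probe.

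**Figure D3:**
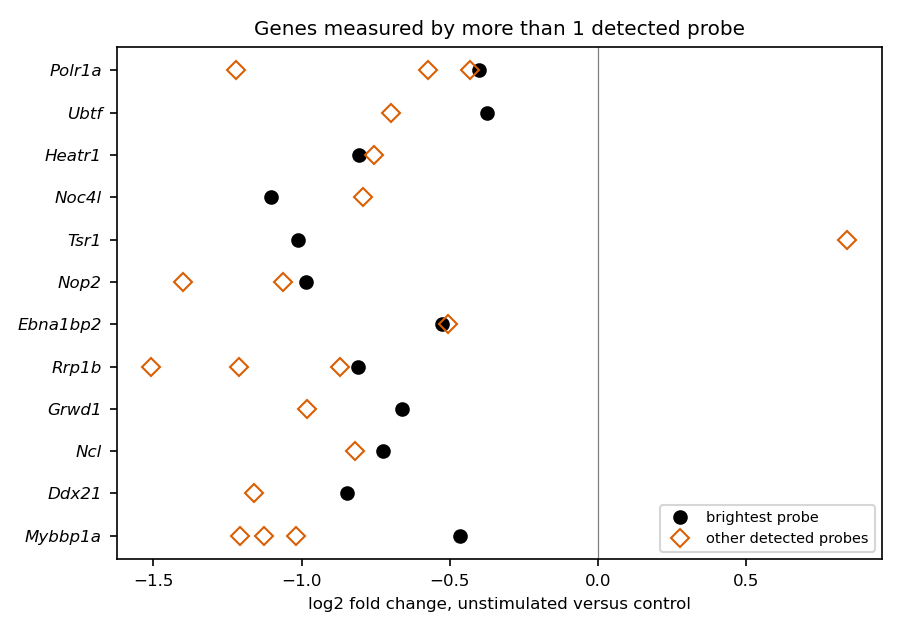
Log2 fold change in unstimulated relative to control cells (horizontal axis) for the 12 genes with more than 1 detected probe. Filled circles are the brightest probe, used in the tests, and open diamonds the others. The second Tsr1 probe stands alone above 0, and the other Mybbp1a probes lie between -1.02 and -1.21.

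A wider list of 125 other ribosome biogenesis genes, also chosen with earlier results of these data known, was compared in the same way. Of the 100 tested, 48 fell and 1 rose in unstimulated relative to control cells, with a median log2 fold change of -0.50. Over all genes 13.7% were called lower and 17.1% higher, which holds beside the counts of the smaller lists here too. Among 32 further small subunit assembly genes, 16 fell, led by the RNA acetyltransferase gene Nat10 (-1.19), Wdr46 (-1.13), Pno1 (-1.02) and Rrp12 (-1.01). Among 42 further large subunit genes, 22 fell, led by the methyltransferase gene Ftsj3 (-1.03), Mrto4 (-0.97), the helicase gene Ddx31 (-0.94) and Las1l (-0.90). Of 6 further polymerase I genes, 2 fell, Tcof1 (-0.72), whose product treacle works with UBF, and Taf1d (-0.53). Of 9 further snoRNP and U3 genes, 4 fell, with Snu13 at -0.85, Nhp2 at -0.77, Ruvbl1 at -0.53 and Shq1 at -0.51, while Imp3, which encodes a U3 snoRNP protein, rose by 0.76 ± 0.16 SE (adjusted p = 0.0076). Of 11 exosome and trimming genes, 4 fell: Mtrex (-1.02), Exosc2 (-0.95), Xrn2 (-0.66) and Exosc1 (-0.59).

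Few genes of the ribosomal proteins themselves were called. Of 77 listed, 49 were tested, and 2 fell and 0 rose, where 13.7% of all genes were called lower and 17.1% higher. The median log2 fold change of the 49 was 0.02. Their probes were much brighter than those of the members: 21 of the 49 averaged a log2 intensity of 15 or more, against 1 of the 27, and the highest value of any gene was 15.98. Whether changes are compressed near this ceiling was not tested. The 2 called were dim probes, those of Rps15a (-1.19 ± 0.18 SE, adjusted p = 0.00197) and Rpl14 (-0.84 ± 0.23 SE, adjusted p = 0.0251). Among 8 tested genes of the MYC network, Myc did not pass (log2 intensities of 8.08 and 7.91 in stimulated, 8.09 and 7.57 in unstimulated, and 8.20 and 8.09 in control cells, -0.31 ± 0.19 SE, adjusted p = 0.243). Mxd4, which encodes a repressor that competes with MYC for its partner MAX, rose 13.9-fold (3.79 ± 0.17 SE, adjusted p = 4.38e-06). Mxd4 has 3 probes and Myc 2, and only the brightest kept probe of each is given here. Mnt (0.51) rose while Mxd3 fell (-0.55), but the Mnt probe was detected on only 1 control array (mean log2 intensity 5.52). Mxd1 was called higher (adjusted p = 0.028), but its probe was detected on 0 control arrays and both unstimulated arrays, which gives only a bound, at least 1.13-fold over the lowest detected signal.

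**Figure D4:**
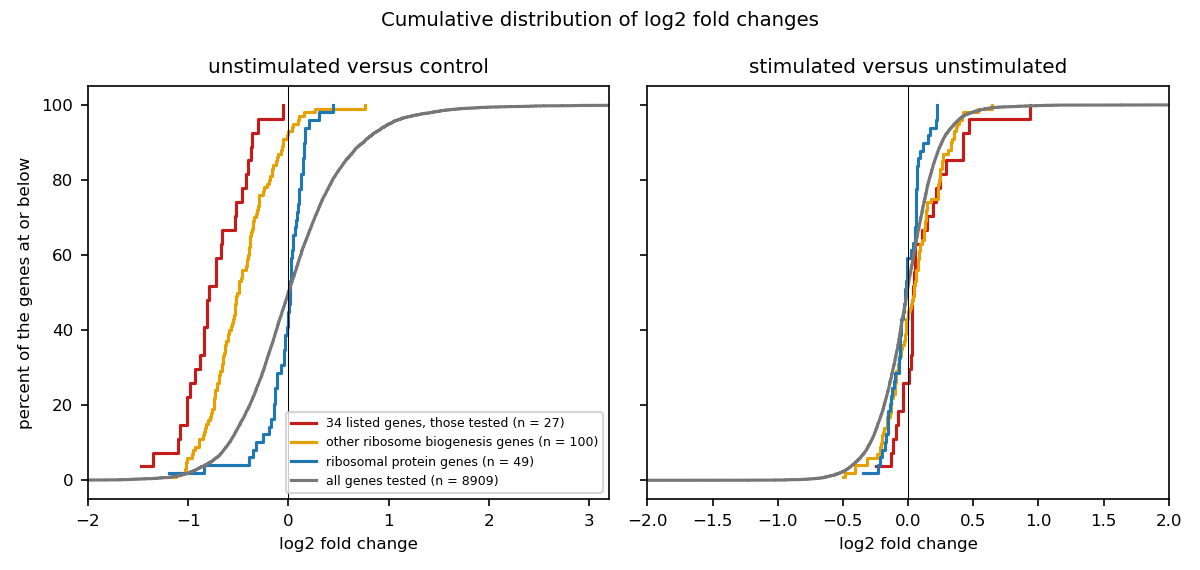
Cumulative distribution of log2 fold changes (horizontal axis) in unstimulated relative to control cells (left) and stimulated relative to unstimulated cells (right). The vertical axis is the percent of genes at or below a value, for the 27 genes tested of the 34, 100 other ribosome biogenesis genes, 49 ribosomal protein genes and all 8909 genes. On the left the medians are -0.79, -0.50, 0.02 and -0.00, and on the right they are 0.04, 0.04, -0.02 and -0.01.

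Promoter sequences from RefSeq (GRCm38.p6) were set beside the values, because many of these genes moved together and MYC binds the E-box CACGTG. The windows ran from 250 bases before to 50 after the gene's start, and 30 of the 34 genes had an entry. CACGTG, which is its own reverse complement, stood in 7 of the 30 (23.3%): Rrn3, Utp20, Tsr1, Pes1, Nop2, Grwd1 and Mybbp1a. Of the 24 members tested with an entry 6 had it (25%), against 12.3% of 7312 genes tested and 8.09% of all 27025 genes with an entry. The letters CCGGAAG or CTTCCGG, a core bound by ETS factors, stood in 10 of the 30 (33.3%) and in 9.93% of the whole table, or in 9 of the 24 members tested (37.5%) and 22.2% of the 7312. Of the members tested, CACGTG was thus present in Nop2 and Grwd1, which fell, and in Rrn3, Pes1 and Mybbp1a, which did not pass. It was also present in Tsr1, for which no direction is given, and absent from the windows of Gnl3 and Rrp9. A match in a window is a description of letters and no evidence of binding. The 250 bases before the start are shown for 3 genes, 5′ to 3′ on the gene's own strand, with CACGTG and CCGGAAG in capitals. Gnl3 (chr14:31019132-31019381, minus strand) had the largest estimated fall with background correction as used here and holds neither motif, Nop2 (chr6:125131633-125131882, plus strand) fell and holds both, and Rrn3 (chr16:13780449-13780698, plus strand) did not pass and holds both, with CACGTG at 2 places and the 2 CCGGAAG matches crossing or following the start, outside the bases shown whole.
Gnl3: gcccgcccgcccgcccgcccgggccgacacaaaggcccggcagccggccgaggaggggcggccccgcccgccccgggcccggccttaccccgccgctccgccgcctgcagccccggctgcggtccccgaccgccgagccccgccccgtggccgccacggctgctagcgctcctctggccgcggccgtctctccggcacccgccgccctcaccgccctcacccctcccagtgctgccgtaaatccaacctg
Nop2: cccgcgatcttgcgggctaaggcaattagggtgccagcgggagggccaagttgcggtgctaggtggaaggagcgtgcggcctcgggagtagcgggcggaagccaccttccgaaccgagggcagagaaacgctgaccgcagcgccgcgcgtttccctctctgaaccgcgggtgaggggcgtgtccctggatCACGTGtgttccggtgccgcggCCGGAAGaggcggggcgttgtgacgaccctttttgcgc
Rrn3: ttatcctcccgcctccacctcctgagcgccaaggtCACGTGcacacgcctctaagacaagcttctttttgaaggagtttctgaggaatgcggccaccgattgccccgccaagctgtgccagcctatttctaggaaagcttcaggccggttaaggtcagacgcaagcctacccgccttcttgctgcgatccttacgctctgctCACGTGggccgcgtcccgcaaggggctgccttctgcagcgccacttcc

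Stimulated cells, which were starved too, were also below control cells. Of the 27 genes, 21 fell and 0 rose by the brightest probe (median log2 fold change -0.61). Without Tsr1, whose probes disagreed here too, 20 of 26 fell. Over all genes 29.1% were called, 13.2% lower and 15.9% higher, and the median was -0.01. Both stimulated arrays lay below both control arrays for 26 of 27 genes, against 33.0% of all genes, and the estimate was below 0 for all 27, against 50.8%. The gene with overlapping arrays was Pes1 (-0.02 ± 0.15 SE, adjusted p = 0.927). This comparison shares its control arrays with the one above, so the values are given side by side. Bop1 (-1.05 ± 0.17 SE, adjusted p = 0.00293) and Nop14 (adjusted p = 0.00306) fell most, by 2.07-fold and 2.01-fold, against 1.91% of all genes called lower by 2-fold or more, and their falls in unstimulated cells were -1.01 and -0.89. In large subunit assembly 8 of 9 genes fell, with Rrp1b (-0.94 ± 0.14 SE, adjusted p = 0.00195) after Bop1. Rrs1 (-0.90), Nop2 (-0.77), Noc3l (-0.66), Noc2l (-0.64), Grwd1 (-0.60) and Ebna1bp2 (-0.50) followed. In small subunit assembly all 5 fell, with Noc4l at -0.82 and Heatr1 at -0.61, and here including Utp15 (-0.78) and the brighter of the opposed Tsr1 probes (-0.96, against 0.72 for the other). All 3 snoRNP genes fell, Rrp9 by -0.89 ± 0.21 SE and Nop58 and Nop56 by -0.58 and -0.55. Of the polymerase I genes, Polr1b (-0.83 ± 0.15 SE, adjusted p = 0.00426), Polr1a (-0.49 ± 0.15 SE, adjusted p = 0.034) and Ubtf (-0.45 ± 0.14 SE, adjusted p = 0.0424) fell, while Rrn3 and Polr1c did not pass (-0.37 and -0.34). Among the remaining nucleolar genes Ncl (-0.62 ± 0.15 SE, adjusted p = 0.0137) and Gnl3 (-0.54 ± 0.17 SE, adjusted p = 0.0452) fell, and Ddx21, Mybbp1a and Npm1 did not pass (-0.42, -0.51 and -0.27, adjusted p 0.0576 to 0.198). The count of 21 was 11 without stimulated replicate 1, 12 without control replicate 1 and 10 without control replicate 2. Ubtf lost its call in 8 of 16 alternative settings, Polr1a in 7, Gnl3 in 6 and Ebna1bp2 in 5, so these lie at the edge of the threshold. Of the 100 other ribosome biogenesis genes, 43 fell and 1, Imp3 (0.63 ± 0.16 SE, adjusted p = 0.0172), rose in stimulated relative to control cells, with a median of -0.49. Mrto4 (-1.07), Rpf2 (-0.92), Nat10 (-0.85), Tcof1 (-0.81) and Dhx37 (-0.78) were among those that fell. Of the 49 ribosomal protein genes 2 fell, with a median of -0.04, and Mxd4 was higher by 3.37 ± 0.17 SE, adjusted p = 6.88e-06, while Myc did not pass (-0.15 ± 0.19 SE, adjusted p = 0.582).

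The direct comparison of stimulated with unstimulated cells asked whether S100A8/A9 moved these genes. None of the 27 was called (limma, adjusted p 0.111 to 0.996), where 0.0786% of all genes were called, and 3 had an unadjusted p below 0.05, all higher, against 8.19% of all genes in either direction and 3.79% higher. The largest estimate was that of Gnl3, nucleostemin, at 0.94 ± 0.17 SE, adjusted p = 0.111, 1.91-fold higher in stimulated cells, with both stimulated arrays above both unstimulated arrays (95% confidence interval 0.55 to 1.33). Its adjusted p ranged from 0.05 to 0.539 over 16 alternative settings, and it passed in 1 of them, the larger background offset of 50. Its estimate was 0.57 without background correction and lay between 0.75 and 1.12 without 1 of the arrays compared. Ddx21 (0.42 ± 0.15 SE, adjusted p = 0.475) and Noc3l (0.42 ± 0.16 SE, adjusted p = 0.526) were the other genes with an unadjusted p below 0.05, and both had non-overlapping arrays, higher in stimulated cells. Rrp9 (0.47 ± 0.21 SE, adjusted p = 0.623), Noc4l (0.29 ± 0.16 SE, adjusted p = 0.694), Nop56 (0.24 ± 0.14 SE, adjusted p = 0.704) and Nop2 (0.21 ± 0.16 SE, adjusted p = 0.788) also had stimulated arrays above unstimulated ones. In all, 7 genes had non-overlapping arrays in that direction, against 18.5% of all genes, and 2, Polr1a and Rrp1b, in the other, against 20.0%. These directions depend on the probe: of the 19 other detected probes only 10 had the sign of the brightest. Those with the opposite sign were at 0.36 and 0.21 for Polr1a, 0.13 and 0.11 for Rrp1b, -0.20 for Noc4l, -0.12 for Tsr1, and 0.07, 0.12 and 0.53 for Mybbp1a (brightest probe -0.04), and none of them was called.

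For most members the difference between stimulated and unstimulated arrays was estimated within a limited range by the brightest probe. The 2 arrays of a group may be technical repeats, so this range does not bound the response of cells to S100A8/A9. Whether unstimulated cells were kept for the 6 h is also not given. By the brightest probe, the 95% confidence interval between stimulated and unstimulated cells lay within 2-fold in either direction in 26 of 27 genes. In 21 it lay within 1.5-fold. The share of all genes within these limits was not worked out. The 19 other detected probes are not covered by these counts. Their estimates ran from -0.30 ± 0.20 SE (Ubtf) to 0.72 ± 0.20 SE (Nop2, limma, adjusted p = 0.395 over all named probes). Polr1a (-0.09 ± 0.15 SE, adjusted p = 0.916), Ubtf (-0.07 ± 0.14 SE, adjusted p = 0.937), Rrn3 (0.05 ± 0.20 SE, adjusted p = 0.972), Ncl (0.11 ± 0.15 SE, adjusted p = 0.894) and Npm1 (0.03 ± 0.15 SE, adjusted p = 0.979) had estimates near 0, and the lowest estimate was that of Utp15 (-0.25 ± 0.18 SE, adjusted p = 0.778). Of the 27 estimates, 20 were above 0 (48.3% of all genes) and 7 below, with a median of 0.04 (all genes -0.01), but with median scaling of the arrays only 9 were above 0, so no direction is given for the group. In mean level the order was unstimulated lowest, stimulated between and control highest for 20 genes, and stimulated lowest for the other 7, where 21.5% and 21.6% of all genes had these orders. The unstimulated arrays enter both this comparison and the starvation comparison, so a low value in them lowers the one estimate and raises the other. Among the 100 other ribosome biogenesis genes 0 were called by limma, with 9 at an unadjusted p below 0.05. Over all genes these shares were 0.0786% and 8.19%, which holds beside the next counts too. The same test called 0 of the 49 ribosomal protein genes and 0 of the 8 MYC network genes, with 0 and 1 at an unadjusted p below 0.05, and Myc was at 0.16 ± 0.19 SE, adjusted p = 0.883.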

How the data were processed

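Total RNA of 6 MC38 samples was measured on 1 Illumina mouse bead array chip, 2 arrays per group. The deposited table gives per probe a signal intensity, not normalized, and a detection p-value, per the file headers. The deposited log2 values of the series table equal those intensities after quantile normalization and log2, without background correction, to within 0.00203, and served as an alternative. The sources used here do not give the scanner's software.

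Intensities were processed with limma 3.58.1 in R 4.3.3: normexp background correction with negative-control values worked out from detection p-values, an offset of 16, quantile normalization and log2. A probe was kept with a detection p below 0.01 on at least 2 of 6 arrays. Symbols came from the platform annotation: 34885 probes have 1 symbol, 18 have several and 10378 have none, and the last 2 kinds were not used. Each gene was measured by its brightest kept probe (8909 genes, of which 3572 had several kept probes). A model with 1 mean per group was fitted over all 6 arrays (lmFit and eBayes), p-values were Benjamini-Hochberg adjusted over those 8909 genes, with calls at an adjusted p below 0.05. Errors are limma standard errors (SE). A permutation test of 2 arrays against 2 could not go below p = 0.333. The fit was tested on simulated data.

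Text values go in full to the pair of genes with the largest change per role group and to Ncl, Npm1, Ubtf, Polr1a and Rrn3; every called member is named, up to 4 called genes per other list, Myc and Mxd4 always, and other probes where the sign differs or the value is over 1.5-fold apart. The fold changes of all 27 genes in unstimulated relative to control cells are given beyond that rule. The members and gene lists were chosen with earlier results of these data known. Alternatives changed the background correction, the scaling, the filter, the probe choice and the variance model, added the replicate number as a block, and left out each array. Same-numbered arrays did not deviate together (correlations of -0.01, -0.02 and -0.04 across genes), so no pairing was assumed. The position on the chip follows the groups and cannot be told apart from them.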

Additional observations from a re-analysis of the deposited data

How the results depend on the processing

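With 16 alternatives per comparison, all 27 genes stayed below 0 in unstimulated relative to control cells in each. Not all alternatives could turn a sign. The detection filters, the replicate block and the trended robust variance left the estimates of these genes as they were. Leaving out a stimulated array removed no array of this comparison, and the deposited table nearly repeats the setting without background correction. With all arrays 18 to 24 members were called in unstimulated relative to control cells (19 as reported). Without a detection filter 33 members entered, 30 below 0 and 3 above, and the 20 called included Nolc1. Counts and medians without a filter are over these 33. The counts below with 1 array left out take in all 6 arrays, also those outside a comparison. Their upper ends come from leaving out such an outside array and do not show how stable the calls are. Leaving out any 1 of the arrays compared gave fewer calls than leaving out an array outside the comparison. Stimulated relative to control cells gave 17 to 23 called members with all arrays (21 as reported) and 10 to 19 with 1 array left out. For all genes these counts were 1366 to 2831 (2746 as reported) and 1554 to 2324 (2589 as reported) with 1 array left out. Between stimulated and unstimulated cells 1 member, Gnl3, was called with an offset of 50 and 0 otherwise. Over all genes 7 were called, against 44 without background correction and with the deposited table, 36 with an offset of 50, 15 with median scaling, 17 with detection on all 6 arrays, 43 with a trended robust variance, and 4 to 8 with 1 array left out. The members' median in unstimulated relative to control cells was -0.72 without background correction, with the deposited table and without a filter, and -0.88 with 75th percentile scaling (-0.82 to -0.72 with 1 array left out). In stimulated relative to control cells it was -0.77 with median scaling and -0.71 with 75th percentile scaling (-0.67 to -0.59 with 1 array left out). In stimulated relative to unstimulated cells it was -0.09 with median scaling (0.028 to 0.10 with 1 array left out). Median scaling moved the median of all genes to -0.13 and -0.11 in the stimulated comparisons and turned the split of stimulated relative to control cells to 1292 lower and 960 higher, against 1172 and 1417. With the replicate number as a block 0, 19 and 20 members were called, and Ubtf lost its call in stimulated relative to control cells. In stimulated relative to unstimulated cells 16 of the 27 genes had an estimate that turned sign in at least 1 alternative. Median scaling turned 11, among them Rrn3 (-0.069), Ncl (-0.026) and Npm1 (-0.13). The 75th percentile scaling turned Npm1 (-0.0096), and the mean of all probes turned Polr1a (0.11), Tsr1 and Mybbp1a. With 1 array left out the estimate ranged from -0.23 to 0.33 for Rrn3, from -0.095 to 0.15 for Npm1 and from -0.16 to 0.0085 for Ubtf, and in stimulated relative to control cells from -0.14 to 0.10 for Pes1. None of these was called. The causes were not tested. Low signals near background, as for Gnl3, limit the size of a fold.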
